A study of Mus musculus with 28 samples.

Results

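Imprinted genes are genes reported as read only or mainly from the maternal or the paternal copy. A set of 41, chosen by symbol, was followed through the exit of mouse embryonic stem cells from the naive state. The rule asked for at least 10 counts in 2 libraries, and all 41 met it, out of 24116 gene IDs in the deposited tables. They lie in 20 imprinted clusters, of which 11 are represented by 1 gene and 9 by 2 or more. By common annotation 15 are read from the maternal copy, 23 from the paternal copy and 3 have a mixed or uncertain pattern, and 7 are long noncoding RNAs. Maternally read and paternally read are used below as these labels. Which copy was read in these cells was not measured. Airn and Rasgrf1 met the rule only through 1 wild-type line, described below.

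All cells were female RGd2 embryonic stem cells, which carry a short-lived GFP reporter at Rex1 (Zfp42), shared by every group. They were kept in 2i, a medium in which inhibitors of Gsk3 and Mek hold the naive state (the stage called ESC in the labels, here 2i), or collected once 2i had been withdrawn for 16 h or 32 h. Ribosome-depleted total RNA was sequenced from wild-type (WT) cells and Zfp281 KO cells at all 3 stages, 12 libraries in all. PolyA-selected RNA was sequenced in 2i and at 32 h from WT cells, Ehmt1 KO cells, Zic2 KO cells and cells with both genes targeted (Ehmt1/Zic2 KO, the double KO), 16 libraries in all. Each of the 14 groups had 2 libraries, from 2 KO clones or from 2 WT lines named WT and Zfp281_WT (ribo-depleted) or Ehmt1_WT and Zic2_WT (polyA). A p-value here therefore rests on the spread between lines or clones of a group. That spread was estimated over all groups fitted together and with information from other genes, not from the groups compared alone.

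At an imprinted cluster, DNA methylation placed in one germ line marks one parental copy of a control region, and that mark decides which copy of each neighbouring gene is read. Many paternally read members promote growth of the embryo and placenta and many maternally read ones restrain it. In stem cells the marks are kept through cell division by zinc finger proteins such as Zfp57 together with Trim28, Setdb1 and Dnmt1, and cultured lines are known to lose or gain them. The libraries measured total RNA of both copies, so a level says nothing of which copy was read. In bulk RNA, fewer cells that express a gene and less RNA per cell cannot be told apart.

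Total counts per library were 18086421 to 35911590 in the ribo-depleted 2i and 32 h libraries, 28538287 to 36365192 in the separate 16 h table, and 19013882 to 28777604 in the polyA libraries. Of 1108 olfactory receptor genes, the line Zfp281_WT had a count for 87.0% to 89.0% in 2i and at 32 h. The 10 remaining ribo-depleted libraries had one for 8.9% to 24.8% and the polyA set for 1.9% to 7.9%. Zfp281 had 238 to 350 CPM (counts scaled to library size) in all 12 ribo-depleted libraries. The part of the gene altered in the KO clones is not given in the labels, so its counts do not check the label, and the same holds for Zic2, while Ehmt1 was at 17.6 to 31.4 CPM in Ehmt1 KO and double KO libraries against 80.3 to 154 CPM in WT. The 7 pluripotency markers summed to 2060 to 3970 CPM in every library, against 5.53 to 28.7 CPM for 7 primitive endoderm, 17.7 to 112 for 7 trophoblast and 2.94 to 18.4 for 8 fibroblast markers.

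Levels of the members covered a wide range, and the order is given per kilobase of exon. In WT cells of the ribo-depleted set in 2i, Impact, a regulator of translation, led with a mean of 134 CPM per kb, followed by the retrotransposon-derived placental gene Peg10 at 69.1, the splicing factor gene Snrpn at 39.4, Mest, which encodes a hydrolase-fold protein, at 35.5, and Mcts2 at 35.2. The polyA set in 2i had the same first 3 in another order, with Impact at 118 CPM per kb, Snrpn at 79.4 and Peg10 at 62.4. Some members had very different levels in the 2 kits. Kcnq1ot1, the antisense RNA of the Kcnq1 cluster, had 233 and 322 CPM in the ribo-depleted WT lines in 2i against 1.95 and 2.60 in the polyA ones. Rtl1, a retrotransposon-derived placental gene, had 52.0 and 66.7 CPM against 1.85 and 3.31. These are values from separate kits, scaled and fitted apart, and the difference was not tested. No strand setting is given, so overlapping pairs cannot be separated: Airn in Igf2r, Kcnq1ot1 in Kcnq1, Rtl1 with Meg3 and Rian, Copg2 with Mest, and Mcts2 inside H13.

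The promoters of 2 members that the results turn on are shown first, since both genes changed with stage and with genotype. Sequences are from RefSeq, build GRCm38.p6, 250 bases before to 50 bases after the transcript start, on the strand of the gene. Capitals mark TGCCGC or its reverse complement GCGGCA, the core of the motif that Zfp57 reads when it is methylated. The Meg3 window is chr12:109540746-109541045 on the plus strand and the Plagl1 window chr10:13090582-13090881 on the plus strand.
Meg3: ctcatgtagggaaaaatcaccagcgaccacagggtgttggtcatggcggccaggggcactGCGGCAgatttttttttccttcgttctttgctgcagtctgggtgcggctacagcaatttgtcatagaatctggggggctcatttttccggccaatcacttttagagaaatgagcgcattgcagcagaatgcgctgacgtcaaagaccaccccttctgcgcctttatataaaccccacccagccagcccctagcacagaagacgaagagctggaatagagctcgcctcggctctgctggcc
Plagl1: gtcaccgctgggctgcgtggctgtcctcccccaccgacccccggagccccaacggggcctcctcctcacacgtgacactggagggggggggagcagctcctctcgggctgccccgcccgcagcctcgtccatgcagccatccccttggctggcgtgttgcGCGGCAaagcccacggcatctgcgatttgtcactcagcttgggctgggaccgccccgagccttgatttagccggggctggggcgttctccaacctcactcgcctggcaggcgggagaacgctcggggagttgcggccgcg
Each holds 1 match. Of the 33 members with a window in the table, 12 had a match on either strand in at least 1 of their windows. That was 13 of 51 windows, 25.5%, against 11.6% of all 32851 promoter windows of this length, beside a median of 15 CpG dinucleotides per window for the members and 7 for all. With TGCCGC sought on the strand of the gene alone it was 3 of 51 windows, 5.9%, against 5.7% of all. Some windows of the same gene overlap, as those of Mest do. A G-rich motif, GGGGAGGGG or its reverse complement, taken as a Zfp281-type site, was in 9.8% of member windows and 6.4% of all. A Zic-type motif, CAGCAGG or its reverse complement, was in 17.6% and 10.5%. Neither Meg3 nor Plagl1 had a match to these 2 motifs in the windows shown. A match is only a run of letters, and no binding or methylation was measured here.

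H19 is the other member shown by sequence, because its RNA is the precursor of a microRNA and its counts differed most between lines. The mature miR-675 arms lie in the H19 gene on the minus strand at chr7:142577078-142577099 and chr7:142577112-142577133 (GRCm38.p6, RefSeq), and capitals mark the seed, bases 2 to 8.
miR-675-3p: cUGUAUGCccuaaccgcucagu
miR-675-5p: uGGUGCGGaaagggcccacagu
The libraries are of long RNA, and no value for either arm was taken from them.

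Of the imprinted genes called in WT cells between 2i and 32 h most were higher at 32 h, and the member with the largest change in both kits was Plagl1, which fell. In the ribo-depleted set 20 of 41 members were called at 32 h, where 25.9% of all 18971 genes tested were. Of these, 15 were higher and 5 lower, beside 15.0% and 11.0% of all genes. In the polyA set 20 of 38 were called against 35.7% of 15667 genes, 18 higher and 2 lower, beside 17.9% and 17.8%. The median log2 fold change of the members was 0.43 (ribo-depleted) and 0.78 (polyA), beside 0.02 and 0.01 over all genes. The sets share no library, and 13 members were higher in both, which is 13 of 15 and 13 of 18. Plagl1 and Zrsr1 were lower in both, and no member was called in opposite directions. The ribo-depleted count was 31 with the line as a block, where 7525 of all 18971 genes were called. It was 10 (8 higher, 2 lower) with only the groups compared, where 2298 of 18351 genes were called. Without the line Zfp281_WT more members and more of all genes were called. Without the line Ehmt1_WT in 2i fewer members and fewer of all genes were called in the polyA set. The summed markers of other cell types were at other levels at 32 h than in 2i, apart from primitive endoderm markers in Zfp281_WT, which were nearly level. In the polyA WT lines trophoblast markers went from 85.2 and 78.6 CPM to 21.8 and 23.8, fibroblast markers from 4.94 and 5.51 to 15.4 and 12.4, and primitive endoderm markers from 12.6 and 9.57 to 24 and 19.5. In the ribo-depleted lines WT and Zfp281_WT trophoblast markers went from 48.1 and 70 CPM to 17.7 and 19.8, fibroblast markers from 4.48 and 11 to 7.73 and 12.5, and primitive endoderm markers from 5.66 and 16.5 to 9.53 and 15.9. Much of the polyA rises lay in single genes. Dab2 (primitive endoderm) went from 1.81 and 0.902 CPM to 10.6 and 8.05. Dcn (fibroblast), also among the further imprinted genes below, went from 0 and 0 to 4.56 and 3.94. In the polyA lines 1 of 7 primitive endoderm and 2 of 4 fibroblast markers tested were called, all higher, and in the ribo-depleted lines none. In each set 3 of 7 trophoblast markers were called, all lower, and that list holds the member Ascl2. The part of these markers in the members' values was not tested.

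**Figure D1:**
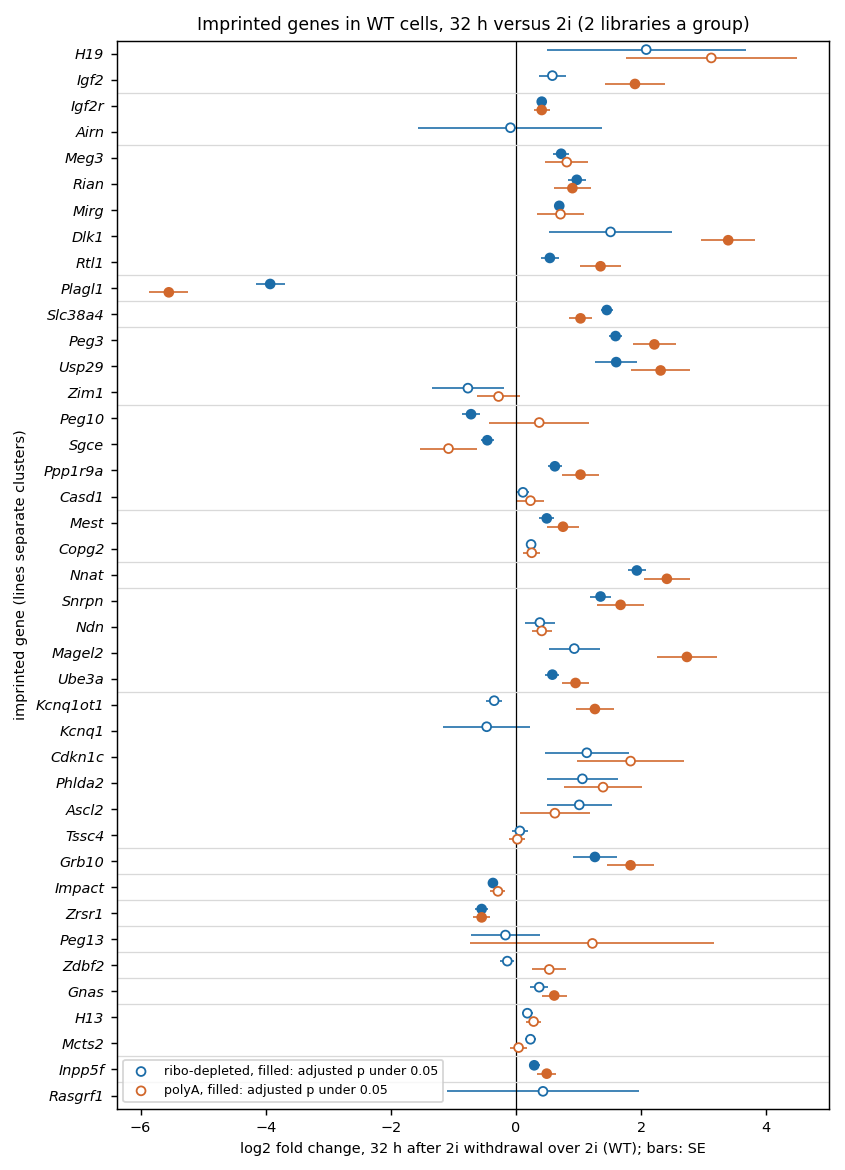
Log2 fold change of each imprinted gene in WT cells, 32 h after 2i withdrawal over 2i, with its standard error as a bar, in the ribo-depleted set (blue) and the polyA set (orange), n = 2 libraries a group. Filled points passed the test; Plagl1 lies far to the left at -3.93 and -5.55, while most other filled points lie to the right of 0.

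Plagl1, a paternally read zinc finger gene known for growth restraint (chr10:13090832-13131694), had 65.3 and 51.7 CPM in the ribo-depleted WT lines in 2i and 4.59 and 2.99 CPM at 32 h. In the polyA lines it had 125 and 174 CPM in 2i and 4.17 and 2.20 CPM at 32 h. The stages did not overlap in either kit, with log2 fold changes of -3.93 ± 0.23 (adjusted p = 5.8e-06) and -5.55 ± 0.31 (adjusted p = 1.7e-07). At 16 h, in the separate table, the line WT had 10.8 CPM and Zfp281_WT 1.94. Zrsr1, a retrogene of a splicing factor inside Commd1, fell by 0.55 ± 0.10 (adjusted p = 0.0025) and 0.55 ± 0.14 (adjusted p = 0.0084). In the polyA set its call was lost without Ehmt1_WT in 2i (-0.48, adjusted p = 0.06) or without Zic2_WT at 32 h (-0.53, adjusted p = 0.059).

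Of 23 paternally read genes tested in the ribo-depleted set 8 were higher and 5 lower, and of 15 maternally read ones 6 and 0. In the polyA set it was 12 and 2 of 21 paternally read genes, and 4 and 0 of 14 maternally read ones. Rtl1 is counted as paternally read, though its counts cannot be separated from those of the maternally read Meg3 and Rian. The shares of all genes called higher and lower were 15.0% and 11.0% in the first set and 17.9% and 17.8% in the second. Slc38a4, an amino acid transporter gene (chr15:96994816-97055956), went from 34.5 and 29.4 CPM to 86.1 and 88.9 in the ribo-depleted lines, and from 37.2 and 49.1 to 92.4 and 84.1 in the polyA lines. Its log2 fold changes were 1.45 ± 0.10 (adjusted p = 8.3e-06) and 1.03 ± 0.18 (adjusted p = 0.00079). Peg3, a zinc finger gene, rose by 1.59 ± 0.11 and 2.21 ± 0.34. Usp29, which starts beside Peg3 and runs the other way, rose by 1.60 ± 0.34 and 2.31 ± 0.47, and its first call was lost when only the groups compared were fitted (1.56, adjusted p = 0.053). Nnat, which encodes neuronatin, a small membrane proteolipid, rose by 1.93 ± 0.14 and 2.41 ± 0.37. Snrpn rose by 1.35 ± 0.17 and 1.67 ± 0.37, though the second call was lost without Ehmt1_WT at 32 h (1.18, adjusted p = 0.051).

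Of the other members of the Snrpn/Ube3a cluster, Ube3a, a ubiquitin ligase gene, rose in both sets (0.58 ± 0.11 and 0.95 ± 0.22), the first lost when only the groups compared were fitted (0.54, adjusted p = 0.091). Magel2 rose by 2.73 ± 0.48 (adjusted p = 8e-04) in the polyA set, from 2.57 and 2.60 CPM to 23.2 and 11.1. In the ribo-depleted set it had 0.765 and 1.15 CPM in 2i and 1.77 and 1.85 CPM at 32 h (0.93 ± 0.41, adjusted p = 0.14). Ndn, the necdin gene, had 22.6 and 14.0 CPM in ribo-depleted 2i libraries and 29.2 and 19.1 CPM at 32 h, and it passed in neither set. Grb10, an adaptor that dampens insulin signalling, rose by 1.83 ± 0.38 (adjusted p = 0.0023) in the polyA set, from 34.9 and 56.9 CPM to 157 and 169.

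Grb10 was also called in the ribo-depleted set (1.26 ± 0.35, adjusted p = 0.045), where the lines stood at 132 and 66.8 CPM in 2i and 296 and 180 CPM at 32 h. That call was lost without Zfp281_WT in 2i (0.77, adjusted p = 0.13) or without WT at 32 h (0.86, adjusted p = 0.2), and with DESeq2-type size factors, no filter or only the groups compared (adjusted p = 0.058, 0.19 and 0.11). Dlk1, a paternally read ligand of the Notch family, rose by 3.39 ± 0.43 (adjusted p = 6.3e-05) in the polyA set, from 0.428 and 0.551 CPM to 5.22 and 5.10. In the ribo-depleted set Dlk1 had 0.109 CPM in the line WT and 1.30 in Zfp281_WT in 2i, and 1.71 and 2.19 at 32 h. There it was at 1.51 ± 0.98 (adjusted p = 0.34), at 1.90 (adjusted p = 0.032) with the line as a block, and at 4.03 without Zfp281_WT in 2i.

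The genes around Peg10 did not move as one. In the ribo-depleted WT lines Peg10 went from 516 and 405 CPM to 317 and 242 (-0.72 ± 0.15, adjusted p = 0.0076) and Sgce from 15.6 and 14.8 to 11.3 and 10.8 (-0.46 ± 0.10, adjusted p = 0.0081). Ppp1r9a, which encodes the actin-binding protein neurabin and lies in the same cluster, went from 44.3 and 47.7 to 75.4 and 65.7 CPM (0.62 ± 0.11, adjusted p = 0.0024). Impact was lower at 32 h, at 562 and 506 against 694 and 682 CPM (-0.37 ± 0.08, adjusted p = 0.0093). No stage overlapped for these 4 genes, but the calls of Peg10, Sgce and Impact were lost when only the groups compared were fitted (adjusted p = 0.056, 0.058 and 0.13). In the polyA lines Peg10 was at 343 and 488 CPM in 2i and 517 and 561 at 32 h, and did not pass. Sgce in the polyA lines did not pass in the fit without a block and passed with the line as one (-1.07, adjusted p = 0.00073), as did Meg3 (0.83, adjusted p = 0.033) and, in the ribo-depleted lines, Igf2 (0.57, adjusted p = 0.028).

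H19 and the growth restrainers Cdkn1c and Phlda2 of the Kcnq1 cluster were over 2-fold apart between the WT lines of each set, in 2i and at 32 h. H19, a maternally read noncoding RNA (chr7:142575530-142578146), had 3.99 CPM in Ehmt1_WT and 0.551 in Zic2_WT in 2i, and 37.3 and 2.90 CPM at 32 h. In the ribo-depleted set the line WT had 5.33 CPM in 2i and 27.2 at 32 h, and Zfp281_WT 0.548 and 0.605. H19 was higher at 32 h in both polyA lines and in the line WT, which went from 195 to 877 counts. It was nearly level in Zfp281_WT, at 11 and 16 counts. The stages overlapped in each set. Without the block H19 did not pass (2.08 ± 1.59, adjusted p = 0.49, and 3.12 ± 1.37, adjusted p = 0.095). With the line as a block it did, at 2.21 (adjusted p = 0.00033) and 3.08 (adjusted p = 4.6e-07), and without the line WT at 32 h the ribo-depleted value was -2.46.

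Cdkn1c, a cell cycle inhibitor gene, had 19 and 4.88 CPM in the lines WT and Zfp281_WT in 2i and 38.1 and 16.3 at 32 h. In Ehmt1_WT and Zic2_WT it had 3.95 and 19.6 CPM in 2i and 12.8 and 70.7 at 32 h. Each line was higher at 32 h than in 2i while the groups overlapped, and Cdkn1c passed with the line as a block (1.25, adjusted p = 3.7e-05, and 1.79, adjusted p = 4.1e-06). The values without the block were 1.13 ± 0.67 (adjusted p = 0.33) and 1.83 ± 0.86 (adjusted p = 0.12). The polyA one was 3.39 without Zic2_WT in 2i and 2.59 without Ehmt1_WT at 32 h. Phlda2 passed with the block as well, at 1.10 (adjusted p = 0.0031) and 1.67 (adjusted p = 0.00054). Without it the values were 1.06 ± 0.57 and 1.39 ± 0.63, and the polyA one was 3.41 without Zic2_WT in 2i. Igf2, the paternally read growth factor gene, rose by 1.90 ± 0.48 (adjusted p = 0.0081) in the polyA set, from 4.33 and 6.21 CPM to 20.6 and 18.7, and the call was lost without Ehmt1_WT in 2i (1.66, adjusted p = 0.087).

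The share of genes whose 2 libraries differed over 2-fold gives a description of this, with no test. In the polyA WT libraries in 2i, 5 of 38 members differed that far (Cdkn1c, H19, Peg3, Phlda2 and Zdbf2), 13.2% against 0.894% of all genes tested. The 32 h libraries had 4 such members, 10.5% against 0.326%. The 2 double KO clones in 2i had 11 such members, 28.9% against 4.72%, among them Peg10 and Usp29. The 2 Zfp281 KO clones had none at any stage, beside 0.0264% to 0.0859% of all genes. In the ribo-depleted WT lines at 32 h the share of members, 7.32%, was below that of all genes, 10.6%, and in 2i the shares were 19.5% and 16.6%.

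**Figure D2:**
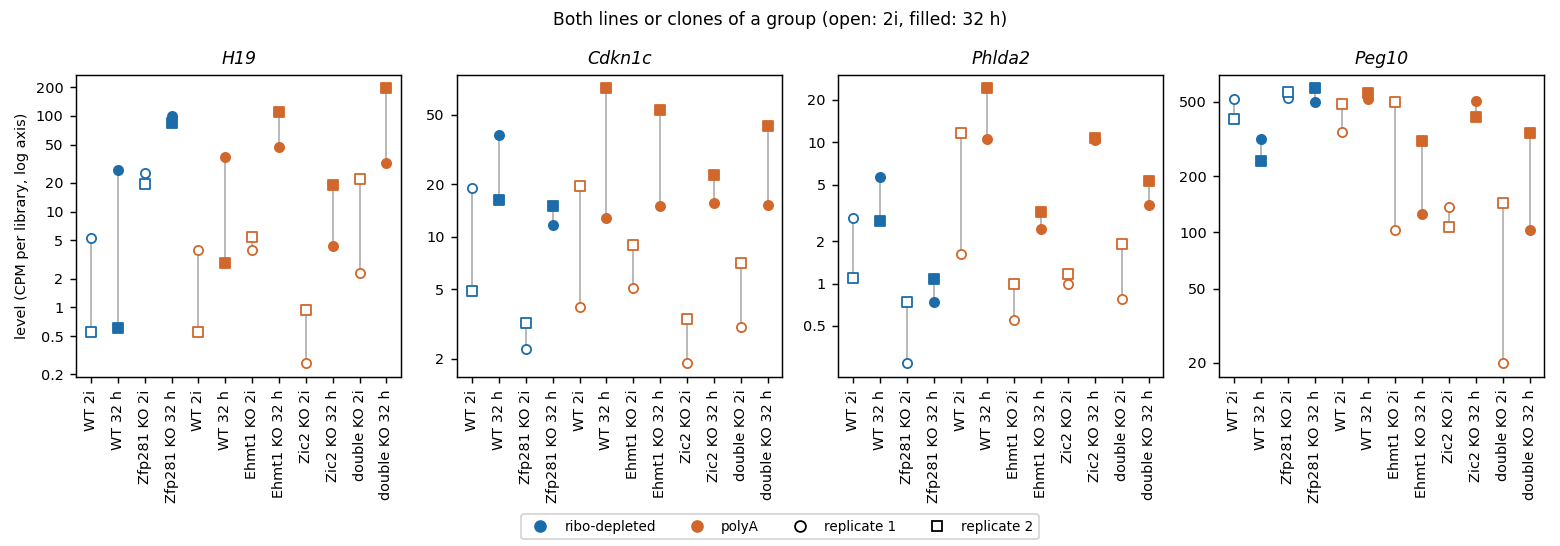
Level of H19, Cdkn1c, Phlda2 and Peg10 in both libraries of each group at 2i (open) and 32 h (filled), in CPM on a log axis, with a grey line joining the 2 lines or clones. H19 spans 0.548 to 27.2 CPM over the 4 ribo-depleted WT libraries and 2.29 to 194 CPM over the 4 double KO libraries.

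In cells labelled Zfp281 KO the noncoding RNAs of the Dlk1/Meg3 cluster were below their WT level at 16 h and 32 h, and overlapped WT in 2i. Meg3 (chr12:109540996-109571729), Rian and Mirg are maternally read RNAs that carry small RNAs, and Rtl1 is annotated as paternally read in the same cluster. Rtl1 overlaps Meg3 and Rian, so without a strand setting its counts cannot be separated from theirs. Meg3 had 128 and 149 CPM in WT and 158 and 129 in KO cells in 2i, so the groups overlapped. Its level was 249 and 206 CPM in WT and 124 and 113 in KO cells at 32 h. In WT cells Meg3 rose by 0.72 ± 0.13 (adjusted p = 0.003) between the stages, and at 32 h the KO level was lower by a log2 value of -0.94 ± 0.13 (adjusted p = 7e-04).

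Rian went the same way, with 446 and 411 CPM in WT and 446 and 364 in KO in 2i, and 925 and 750 against 418 and 351 at 32 h (-1.12 ± 0.14, adjusted p = 0.00038). Mirg had 79.1 and 77.7 CPM against 85.4 and 77.1 in 2i, and 127 and 125 against 73.8 and 70.3 at 32 h (-0.81 ± 0.08, adjusted p = 0.00011). KO and WT overlapped in 2i and were apart at 32 h for all 3 RNAs. Rtl1 was at 92.4 and 80.0 CPM in WT and 65.6 and 56.2 in KO at 32 h (-0.50 ± 0.14, adjusted p = 0.022), a call lost without the line WT at 32 h (-0.39, adjusted p = 0.098) or without KO clone 2 (-0.39, adjusted p = 0.22). At 16 h, in the separate table, all 4 were lower in KO cells. Meg3 had 206 and 165 CPM in WT and 82.1 and 81.1 in KO (-1.18 ± 0.11, adjusted p = 0.00021).

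Rian was at 562 and 572 against 260 and 253 CPM (-1.14 ± 0.08, adjusted p = 5.5e-05) at 16 h. Mirg was at 136 and 130 against 50.9 and 54.8 (-1.34 ± 0.09, adjusted p = 4.5e-05), and Rtl1 at 113 and 90.2 against 40.3 and 41.6 (-1.31 ± 0.12, adjusted p = 0.00016). No KO library at 16 h reached the lower WT library for any of the 4. The difference in the 32 h response between KO and WT was called for Meg3 (-0.99 ± 0.18, adjusted p = 0.019), Rian (-1.04 ± 0.19, adjusted p = 0.02) and Mirg (-0.86 ± 0.11, adjusted p = 0.005). These 3 and Igf2 were the 4 members called among 41, all lower, where 4.15% of all genes were called and 2.20% were lower. Without any one of the 4 KO libraries these 4 calls were lost, with values from -0.76 to -1.18 for the 3 RNAs. Far fewer of all genes were called in those runs as well. Leaving out either WT line in 2i gave more calls, among the members and over all genes. With the line as a block 16 members were called, beside 2605 of all 18971 genes. Dlk1 itself had 1.71 and 2.19 CPM in WT and 0.388 and 0.384 in KO cells at 32 h (-2.32 ± 1.01, adjusted p = 0.12).

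**Figure D3:**
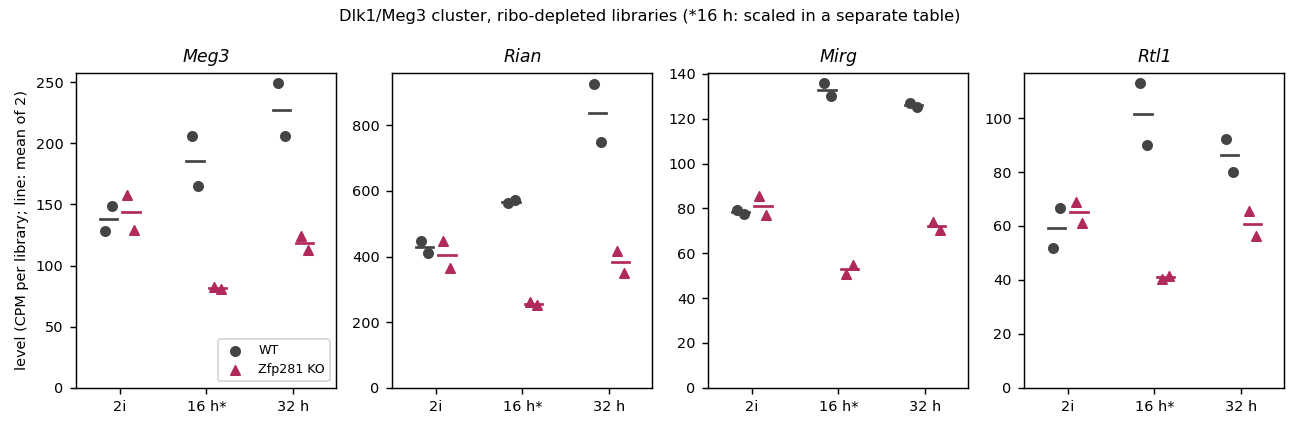
Level of Meg3, Rian, Mirg and Rtl1 in each ribo-depleted library in CPM, WT as circles and Zfp281 KO as triangles, with the mean of the 2 libraries as a line. KO and WT points overlap in 2i and are apart at 16 h and 32 h, where for example Mirg is at 50.9 to 54.8 against 130 to 136 CPM (16 h, a table scaled on its own).

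Across all clusters, 12 of 41 members differed between Zfp281 KO and WT cells in 2i, where 13.8% of all genes did, 9 higher and 3 lower, beside 8.50% and 5.30%. At 16 h it was 15 of 39 against 28.6%, 5 higher and 10 lower, beside 15.3% and 13.3%, and 19 without Zfp281_WT. At 32 h it was 21 of 41 against 28.5%, 11 higher and 10 lower, beside 16.6% and 11.9%. With DESeq2-type size factors in edgeR the 32 h split was 7 higher and 11 lower, so higher calls went from 52.4% to 38.9%. The median log2 fold change of the members was 0.14, -0.06 and 0.21 at the 3 stages, beside -0.04, -0.01 and -0.07 over all genes. In 2i leaving out either KO clone lowered the member count, with Slc38a4 and Nnat still called, and leaving out either WT line raised it. At 32 h leaving out either KO clone lowered the member count, and leaving out Zfp281_WT at both stages raised it. The number of all genes called moved the same way in each of these runs. Where a group keeps 1 library, that library is assumed to vary like the other groups.

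Slc38a4 was higher in Zfp281 KO than in WT cells at every stage. It had 86.7 and 77.8 CPM against 34.5 and 29.4 in 2i, 133 and 118 against 62.9 and 69.5 at 16 h, and 161 and 158 against 86.1 and 88.9 at 32 h. The groups did not overlap at any stage, and the log2 fold changes were 1.36 ± 0.10 (adjusted p = 8.2e-05), 0.92 ± 0.10 (adjusted p = 0.00035) and 0.87 ± 0.09 (adjusted p = 0.00017). Igf2r, the maternally read receptor that clears Igf2 (chr17:12682406-12769706), was lower at every stage. It had 96.3 and 88.5 against 137 and 149 CPM in 2i, 69.1 and 70.1 against 102 and 119 at 16 h, and 93.8 and 92.7 against 195 and 185 at 32 h. The values were -0.63 ± 0.08 (adjusted p = 0.0013), -0.66 ± 0.10 (adjusted p = 0.0016) and -1.03 ± 0.08 (adjusted p = 3.4e-05). The 2i call was lost without KO clone 1 (-0.65, adjusted p = 0.051) or clone 2 (-0.53, adjusted p = 0.12).

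Igf2 had 0.881 and 1.04 CPM in Zfp281 KO cells at 32 h against 5.03 and 5.11 in WT, and fell by 2.40 ± 0.25 on the log2 scale (adjusted p = 0.00013). In 2i it had 1.75 and 2.21 against 3.50 and 3.29 CPM (-0.78 ± 0.23, adjusted p = 0.053), and without Zfp281_WT at both stages the value was -0.89. The KO libraries were below the WT ones at both stages, and the difference in response was -1.62 ± 0.33 (adjusted p = 0.029). That call was lost in DESeq2 (adjusted p = 0.071), without either WT line at 32 h (adjusted p = 0.07 and 0.067) and without any KO library. At 16 h Igf2 had 0.863 and 1.09 against 2.63 and 1.54 CPM (-1.08 ± 0.34, adjusted p = 0.039), lost without the line WT (-0.65, adjusted p = 0.12), without KO clone 1 (-0.93, adjusted p = 0.19) or clone 2 (-1.27, adjusted p = 0.073), and in DESeq2 (adjusted p = 0.13). H19, the other gene of the cluster, had 25.3 and 19.2 CPM in KO and 5.33 and 0.548 in WT cells in 2i, and 98.8 and 84.2 against 27.2 and 0.605 at 32 h.

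No KO library overlapped a WT library for H19 at any stage, with 55.0 and 35.5 CPM in KO cells at 16 h. It did not pass in 2i (2.73 ± 1.57, adjusted p = 0.33), at 16 h (2.98 ± 1.78, adjusted p = 0.35) or at 32 h (2.69 ± 1.37, adjusted p = 0.24), with WT lines of 11.6 and 0.114 CPM at 16 h. Against the line WT alone, with Zfp281_WT left out, H19 was at 2.00 in 2i and 1.72 at 32 h. That fit leaves out the spread between the WT lines. Cdkn1c had 2.26 and 3.19 CPM in KO cells against 19 and 4.88 in WT cells in 2i. It passed at no stage with both lines, and without Zfp281_WT, again with no spread between WT lines, it was at -2.87 in 2i and -1.56 at 32 h.

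Phlda2, which restrains placental growth, was lower in Zfp281 KO cells at 16 h (0.414 and 0.444 against 2.79 and 1.14 CPM; -2.17 ± 0.49, adjusted p = 0.013) and at 32 h (0.740 and 1.07 against 5.68 and 2.76 CPM; -2.22 ± 0.60, adjusted p = 0.022). The 16 h call was lost without KO clone 1 (-2.13, adjusted p = 0.055), and the 32 h call on leaving out the line WT (-1.60, adjusted p = 0.15), KO clone 1 (-2.02, adjusted p = 0.17) or KO clone 2 (-2.51, adjusted p = 0.096). Gnas, which encodes stimulatory G protein alpha and other transcripts of mixed imprinting, was lower at all 3 stages. It had 50.2 and 56.6 against 87.0 and 65.8 CPM in 2i, 49.5 and 50.4 against 87.2 and 68.0 at 16 h, and 52.2 and 56.5 against 109 and 89.0 at 32 h. The later stages gave -0.63 ± 0.12 (adjusted p = 0.0058) and -0.86 ± 0.14 (adjusted p = 0.0019). The 2i value of -0.52 ± 0.14 (adjusted p = 0.041) was lost on leaving out the line WT (-0.18, adjusted p = 0.25), KO clone 1 (-0.40, adjusted p = 0.48) or KO clone 2 (-0.58, adjusted p = 0.28), and with no filter (adjusted p = 0.11).

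Of 23 paternally read genes tested in Zfp281 KO cells in 2i, 8 were called higher and 0 lower. At 16 h it was 4 and 4 of 21, and at 32 h 9 and 4 of 23, with the shares of all genes as given above. The lower calls at 16 h and 32 h include Rtl1, whose counts cannot be separated from those of the maternally read Meg3 and Rian. Nnat had 6.82 and 6.25 CPM in KO and 3.50 and 3.49 in WT cells in 2i (0.90 ± 0.14, adjusted p = 0.0038). Ndn had 43.5 and 39.6 against 26.1 and 19.9 CPM at 16 h (0.85 ± 0.14, adjusted p = 0.0028), and Peg13, a noncoding RNA inside Trappc9, 4.04 and 3.45 against 1.22 and 1.31 CPM (1.56 ± 0.23, adjusted p = 0.0019). Groups did not overlap in these comparisons. Zrsr1 had 50 and 54.9 against 29.3 and 28.5 CPM at 32 h (0.86 ± 0.10, adjusted p = 0.00024) and Peg10 500 and 591 against 317 and 242 CPM (0.96 ± 0.16, adjusted p = 0.0016). Usp29 went the other way at 16 h, with 4.45 and 4.41 against 9.63 and 9.20 CPM (-1.09 ± 0.16, adjusted p = 0.0016). The calls given by gene in this paragraph held in every alternative run.

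**Figure D4:**
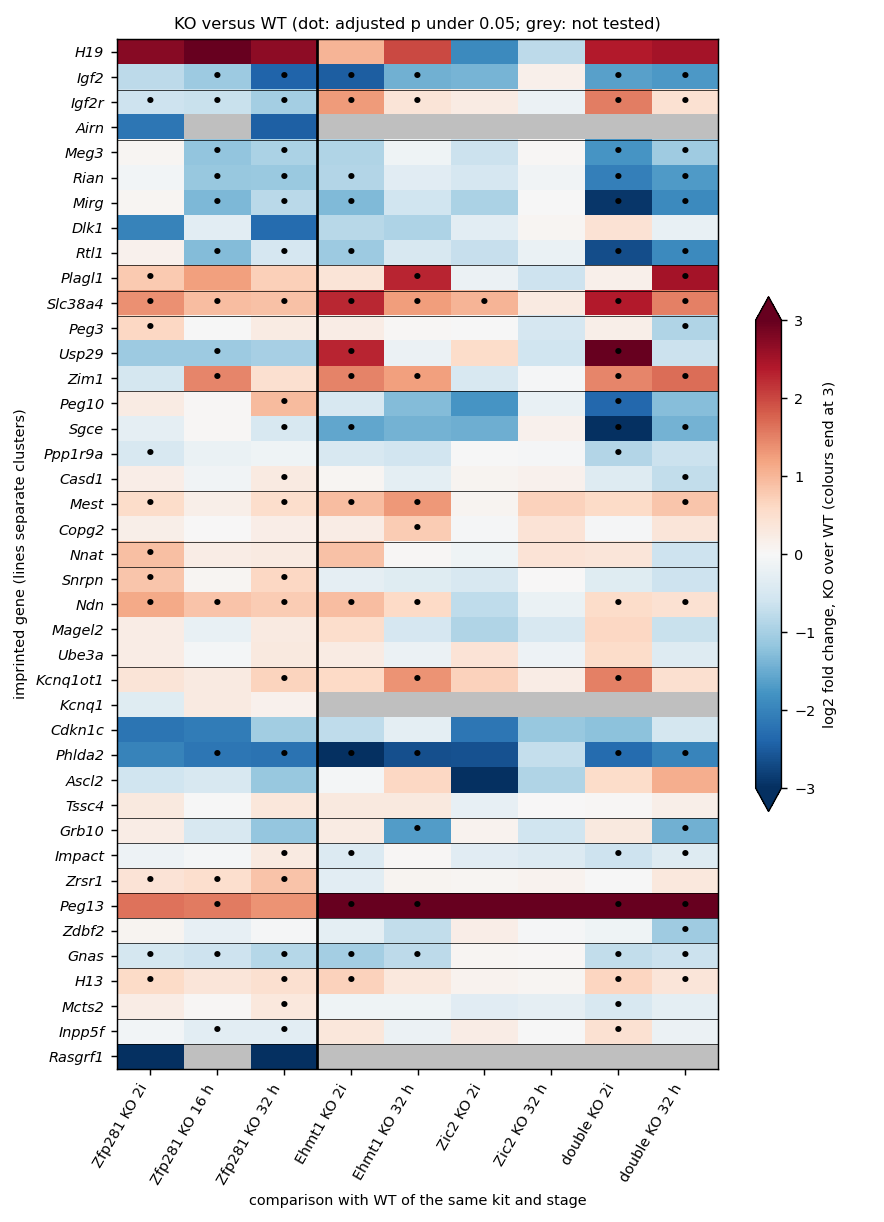
Log2 fold change of each imprinted gene, KO over WT of the same kit and stage, as colour (red higher, blue lower, ending at 3), with a dot where the test passed and grey where the gene was not tested. Slc38a4 is red in all 9 columns, with dots in 8, and Igf2r is blue in the Zfp281 KO columns and red with dots in the Ehmt1 KO and double KO columns; the dark Peg13 cells of Zic2 KO rest on 1 to 3 counts in WT.

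In Ehmt1 KO cells Slc38a4, Igf2r and Peg13 were higher than in WT cells and Igf2 and Gnas lower. In 2i, 16 of 38 members were called, where 26.9% of all genes were, 8 higher and 8 lower, beside 14.8% and 12.1%. At 32 h it was 13 of 38 against 26.6%, 9 higher and 4 lower, beside 15.1% and 11.4%. The median log2 fold change of the members was 0.15 and -0.15, beside -0.01 and 0 over all genes. Leaving out KO clone 1 or Zic2_WT lowered the member count in 2i, through fewer lower calls, and at 32 h. The number of all genes called was lower in each of these runs as well. Slc38a4 had 215 and 201 CPM against 37.2 and 49.1 in WT in 2i (2.27 ± 0.19, adjusted p = 3.6e-06), and 238 and 184 against 92.4 and 84.1 at 32 h (1.25 ± 0.18, adjusted p = 0.00033). The KO libraries lay above the WT ones at both stages.

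Igf2r had 213 and 192 CPM in Ehmt1 KO and 74.0 and 92.5 in WT cells in 2i (1.28 ± 0.13, adjusted p = 1.8e-05), and 158 and 134 against 114 and 107 at 32 h (0.39 ± 0.13, adjusted p = 0.035). The groups did not overlap, but the 32 h call was lost without Ehmt1_WT (0.44, adjusted p = 0.1), without Zic2_WT (0.35, adjusted p = 0.19) and without KO clone 1 (0.27, adjusted p = 0.25). The difference in the 32 h response was -0.89 ± 0.18 (adjusted p = 0.028). It was lost without 6 of the 8 libraries, with adjusted p from 0.052 to 0.13. In a fit of only the groups compared it was -0.87 and did not pass (adjusted p = 0.095). Igf2 was at 0.505 and 1.42 against 4.33 and 6.21 CPM in 2i (-2.47 ± 0.58, adjusted p = 0.0073; -1.88, adjusted p = 0.08, without KO clone 1).

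Peg13 (chr15:72805602-72810324) was nearly absent from polyA WT libraries, with 1 and 0 counts in 2i and 2 and 1 at 32 h. Ehmt1 KO cells had 97 and 160 counts in 2i (4.45 and 8.44 CPM) and 89 and 108 at 32 h (4.14 and 4.30 CPM). Per total counts the ratio to WT was 264 in 2i, with an exact 95% counting interval of 47 to 1.05e+04, and 66.6 (22.5 to 326) at 32 h. Both comparisons passed (adjusted p = 1e-04 and 0.00033), and no KO library overlapped a WT library. The intervals cover counting error only. The host gene Trappc9 had 30.0 and 28.1 CPM in Ehmt1 KO and 35.1 and 30.5 in WT cells in 2i, and no strand setting is given.

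Of the Peg3 cluster, Usp29 had 19.7 and 10.5 CPM in Ehmt1 KO and 2.66 and 3.56 in WT cells in 2i (2.28 ± 0.47, adjusted p = 0.0031). At 32 h it had 13.5 and 13.9 against 14.4 and 16.3 (-0.17 ± 0.42, adjusted p = 0.81), and the difference in response was -2.45 ± 0.63 (adjusted p = 0.073; -2.40, adjusted p = 0.025, with the line as a block). Zim1, a maternally read zinc finger gene, was at 1.93 and 2.32 against 0.761 and 0.751 CPM in 2i (1.48 ± 0.31, adjusted p = 0.004). Peg3 itself, which shares its start region with Usp29, was at 61.7 and 84.3 against 40.9 and 84.4 CPM, overlapping. Ndn (0.92 ± 0.16, adjusted p = 0.001) and H13, a signal peptide peptidase gene (0.70 ± 0.12, adjusted p = 0.00083), were also higher in 2i. Gnas had 102 and 88.4 against 169 and 215 CPM (-1.01 ± 0.20, adjusted p = 0.0023).

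Plagl1 was above its WT level at 32 h in Ehmt1 KO cells. It had 152 and 240 CPM in Ehmt1 KO and 125 and 174 in WT cells in 2i (0.39 ± 0.24, adjusted p = 0.24), where the groups overlapped. At 32 h it had 17.3 and 13.8 CPM against 4.17 and 2.20, above both WT libraries (2.29 ± 0.30, adjusted p = 0.00015). The difference in response was 1.90 ± 0.38 (adjusted p = 0.027). It was lost without Zic2_WT in 2i (1.63, adjusted p = 0.066) or at 32 h (1.50, adjusted p = 0.13) and without KO clone 1 in 2i (1.63, adjusted p = 0.063) or at 32 h (1.73, adjusted p = 0.083). Its value in a fit of only the groups compared was 1.92 (adjusted p = 0.098), which did not pass. Plagl1 and Igf2r were the members called in that test, 2 of 38 beside 1.86% of all genes, 1 higher and 1 lower, beside 1.21% and 0.651%. The count was 7 with the line as a block, and 0 or 1 without 7 of the 8 libraries, the lowest without Zic2_WT at 32 h and without KO clone 1 in 2i. With only the groups compared it was 1, Usp29 (-2.44, adjusted p = 0.049).

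Mest had 773 and 684 CPM in Ehmt1 KO and 300 and 292 in WT cells at 32 h (1.30 ± 0.25, adjusted p = 0.0024). Its overlapping neighbour Copg2, a coatomer subunit gene, had 343 and 305 against 186 and 194 CPM (0.77 ± 0.14, adjusted p = 0.0017). The KO libraries were above WT for both, and the counts of the pair cannot be separated without strand. Grb10 was at 42.3 and 60.3 against 157 and 169 CPM at 32 h (-1.67 ± 0.38, adjusted p = 0.0059; -1.44, adjusted p = 0.058, without KO clone 1). In the Dlk1/Meg3 cluster, Rian, Mirg and Rtl1 were lower in Ehmt1 KO cells in 2i (-0.89 ± 0.30, -1.32 ± 0.39 and -1.08 ± 0.37). Each call was lost without Zic2_WT (adjusted p = 0.26, 0.097 and 0.33) and without KO clone 1 (adjusted p = 0.25, 0.19 and 0.26), those of Rian and Mirg also without Ehmt1_WT (adjusted p = 0.051 and 0.066) and with no filter (adjusted p = 0.12 and 0.077), and those of Rian and Rtl1 also without KO clone 2 (adjusted p = 0.055 and 0.053).

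Phlda2 was called lower in Ehmt1 KO cells at both stages, but the values rest on few libraries. It had 0.550 and 1.00 CPM against 1.62 and 11.7 in WT in 2i (-3.11 ± 0.78, adjusted p = 0.011), and 2.42 and 3.19 against 10.6 and 24.2 at 32 h (-2.63 ± 0.67, adjusted p = 0.012). The groups did not overlap. Without Zic2_WT the values were -1.04 (adjusted p = 0.27) and -1.92 (adjusted p = 0.11), and without KO clone 1 they were -2.73 (adjusted p = 0.093) and -2.45 (adjusted p = 0.08). Kcnq1ot1, of the same cluster, had 10.4 and 17.5 CPM against 6.71 and 4.23 at 32 h (1.35 ± 0.29, adjusted p = 0.0044; 1.06, adjusted p = 0.062, without Zic2_WT).

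**Figure D5:**
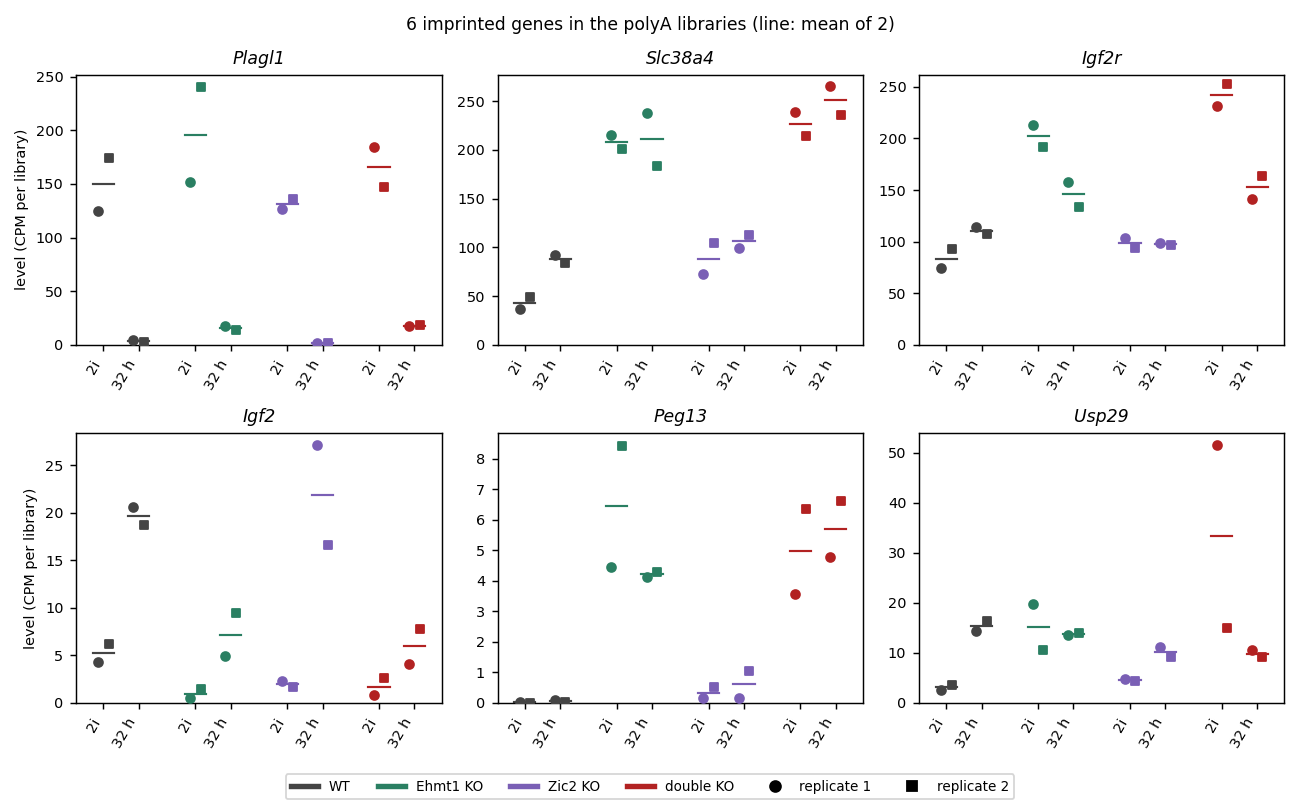
Level of 6 imprinted genes in each polyA library in CPM, with replicate 1 as circles, replicate 2 as squares and the mean of 2 as a line. Peg13 lies at 0 to 0.0877 CPM in WT and 3.58 to 8.44 CPM in Ehmt1 KO and double KO, and Plagl1 at 32 h at 2.20 to 4.17 CPM in WT and 13.8 to 18.5 CPM in those 2 genotypes.

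In cells labelled Zic2 KO few members passed the test. In 2i 1 of 38 was called, Slc38a4, higher, beside 0.274% of all genes called and 0.160% higher. It had 72.6 and 104 CPM against 37.2 and 49.1 in WT (1.03 ± 0.18, adjusted p = 0.04), without overlap. The count was 0 without Ehmt1_WT, KO clone 1 or KO clone 2, with adjusted p for Slc38a4 of 0.35, 0.08 and 0.41, and it was 4 without Zic2_WT. At an unadjusted p under 0.05 there were 11 of 38 in 2i, a threshold at which all genes were not counted. The median absolute log2 fold change of the members was 0.45, beside 0.17 over all genes. With only the groups compared 4 members were called in 2i, all lower, among them Peg10 (-1.76, adjusted p = 0.015) and not Slc38a4 (1.05, adjusted p = 0.066). At 32 h 0 of 38 passed in edgeR, beside 0.0766% of all genes, and 0 passed in DESeq2. At an unadjusted p under 0.05 there were 4 at 32 h, and all genes were not counted at that threshold. With only the groups compared 3 members were called there, all lower, and 1516 of all 14334 genes tested, where 12 of all genes were called in the fit over all groups.

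For the difference in response in Zic2 KO cells 0 members passed in either tool, beside 0% of all genes in edgeR. With the line as a block 1 passed. At an unadjusted p under 0.05 there were 7, and all genes were not counted at that threshold. Peg13 had 3 and 11 counts in 2i and 4 and 26 at 32 h in the Zic2 KO clones, ratios to WT of 14.3 (2.18 to 605) and 9.89 (3.08 to 50.7), and did not pass (adjusted p = 0.43 and 0.31). Ascl2, a trophoblast transcription factor gene, had 0.157 and 0.093 CPM against 1.52 and 1.10 in WT in 2i (-3.36 ± 0.84, adjusted p = 0.12; adjusted p = 0.011 in DESeq2 and 0.026 with only the groups compared). Peg10 had 136 and 107 CPM against 343 and 488 (-1.77 ± 0.83, adjusted p = 0.51). Neither gene overlapped WT in 2i.

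In the double KO cells Meg3, Rian, Mirg and Rtl1 of the Dlk1/Meg3 cluster were lower than in WT at both stages, and Slc38a4, Igf2r, Peg13 and Zim1 were higher. In 2i, 21 of 38 members were called, where 39.4% of all genes were, 9 higher and 12 lower, beside 20.9% and 18.5%. At 32 h it was also 21 against 39.1%, 8 higher and 13 lower, beside 21.4% and 17.8%. The median log2 fold change of the members was 0.09 and -0.46, beside 0 and 0.02 over all genes. Leaving out Zic2_WT or KO clone 1 lowered the member count at 32 h, and the number of all genes called as well. With only the groups compared the 2i count was 13, beside 3386 of all 14388 genes tested. Meg3 had 38.9 and 99.1 CPM against 178 and 289 in WT in 2i (-1.76 ± 0.35, adjusted p = 0.0019), and 172 and 220 against 463 and 354 at 32 h (-1.06 ± 0.34, adjusted p = 0.026). Neither stage overlapped, and the 32 h call was lost without Ehmt1_WT (-0.86, adjusted p = 0.15), KO clone 1 (-0.88, adjusted p = 0.15) or KO clone 2 (-1.22, adjusted p = 0.061).

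Rian was at 51.8 and 117 against 289 and 410 CPM in 2i (-2.05 ± 0.31, adjusted p = 0.00027) and at 180 and 223 against 677 and 632 at 32 h (-1.70 ± 0.30, adjusted p = 0.00091). Mirg was at 2.29 and 7.06 against 32.8 and 37.7 CPM in 2i (-2.92 ± 0.42, adjusted p = 0.00021) and at 14.8 and 16.0 against 63.0 and 52.3 at 32 h (-1.90 ± 0.38, adjusted p = 0.002). Rtl1, low in this kit, was at 0.275 and 0.535 against 1.85 and 3.31 CPM in 2i (-2.66 ± 0.42, adjusted p = 0.00041) and at 1.69 and 1.82 against 7.46 and 5.72 at 32 h (-1.91 ± 0.33, adjusted p = 0.00079). All double KO libraries lay below WT for the 3 genes at each stage. The counts of Rtl1 cannot be separated from those of Meg3 and Rian without strand. Dlk1 was at 0.459 and 0.876 against 0.428 and 0.551 CPM in 2i (0.44 ± 0.50, adjusted p = 0.51) and at 3.13 and 5.73 against 5.22 and 5.10 at 32 h (-0.22 ± 0.34, adjusted p = 0.63). The KO genotypes share the WT libraries, and no test was made between them.

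In the other clusters of the double KO, Slc38a4 was at 239 and 214 CPM in 2i (2.39 ± 0.19, adjusted p = 2.5e-06) and 266 and 236 at 32 h (1.51 ± 0.18, adjusted p = 5.8e-05). Igf2r was at 231 and 253 CPM in 2i (1.54 ± 0.13, adjusted p = 3.9e-06) and 141 and 164 at 32 h (0.46 ± 0.13, adjusted p = 0.012). Both genes were above WT in every library, though the 32 h call of Igf2r was lost without Zic2_WT (0.42, adjusted p = 0.087) or KO clone 2 (0.38, adjusted p = 0.093). Peg13 had 78 and 131 counts in 2i, a ratio to WT of 207 (36.7 to 8.2e+03; adjusted p = 0.00013), and 142 and 181 at 32 h, a ratio of 92.7 (31.4 to 452; adjusted p = 0.00012). Zim1 was higher at both stages, with 1.88 and 2.34 CPM in 2i (1.47 ± 0.31, adjusted p = 0.0029) and 2.02 and 1.97 at 32 h (1.68 ± 0.31, adjusted p = 0.0012). Igf2 was at 0.825 and 2.58 CPM in 2i (-1.64 ± 0.54, adjusted p = 0.028) and 4.11 and 7.81 at 32 h (-1.72 ± 0.47, adjusted p = 0.011), but the 2i call was lost without Ehmt1_WT (adjusted p = 0.053), Zic2_WT (adjusted p = 0.14) or KO clone 1 (adjusted p = 0.2), and the 32 h call without Ehmt1_WT (adjusted p = 0.055) or KO clone 1 (adjusted p = 0.096).

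The Peg10/Sgce genes were low in the double KO and differed between clones. Sgce, a sarcoglycan gene that shares its start region with Peg10, had 0.779 and 1.61 CPM in clones 1 and 2 against 18 and 14.0 in WT in 2i (-3.75 ± 0.55, adjusted p = 0.00022). Peg10 had 19.9 and 144 CPM against 343 and 488 (-2.35 ± 0.85, adjusted p = 0.043). Neither overlapped WT, but the Peg10 call was lost without Ehmt1_WT (-2.58, adjusted p = 0.082), Zic2_WT (-2.05, adjusted p = 0.13) or KO clone 1 (-1.53, adjusted p = 0.19). In the Ehmt1 KO clones in 2i Peg10 had 103 and 498 CPM and Sgce 2.80 and 8.13, lower in clone 1 for both. Kcnq1ot1 was higher in the double KO in 2i, at 6.69 and 6.28 against 1.95 and 2.60 CPM (1.51 ± 0.31, adjusted p = 0.0025). H13 (0.65 ± 0.12, adjusted p = 0.0011) was higher and Impact lower, at 375 and 408 against 596 and 615 CPM (-0.63 ± 0.12, adjusted p = 0.0017).

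Plagl1, Igf2r and Usp29 responded to exit differently in the double KO than in WT cells, and these were the 3 of 38 members called, beside 5.29% of all genes, 1 higher and 2 lower, beside 3.08% and 2.21%. Plagl1 went from 184 and 147 CPM to 17.1 and 18.5 (WT: 125 and 174 to 4.17 and 2.20), a difference in response of 2.33 ± 0.38 (adjusted p = 0.0044). Igf2r was lower at 32 h than in 2i in each clone and higher in each WT line, a difference of -1.08 ± 0.18 (adjusted p = 0.0053). Usp29 had 51.6 CPM in clone 1 and 15 in clone 2 in 2i, and 10.5 and 9.16 at 32 h, while WT lines went from 2.66 and 3.56 to 14.4 and 16.3. The difference was -4.07 ± 0.63 (adjusted p = 0.0037), and against WT in 2i Usp29 was at 3.42 ± 0.48 (adjusted p = 0.00016). These calls held in every alternative run, while the count was 8 without Zic2_WT in 2i, 5 without KO clone 2 in 2i, 6 in DESeq2 and 12 with the line as a block.

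Counted over the 11 comparisons of stage or genotype, without the differences in response, Slc38a4 was called most often, in 10, always higher. Mest and Ndn were called in 7 each, always higher, and Phlda2 in 6, always lower. Gnas was higher in 1 and lower in 7, Igf2r higher in 6 and lower in 3, and Sgce lower in 5. Comparisons of one kit and stage share WT libraries, so these counts are not independent.

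The remaining members are accounted for as follows. H19, Airn, Kcnq1, Cdkn1c, Ascl2 and Tssc4 were called in no comparison of stage or genotype; Airn and Rasgrf1 were not tested at 16 h, nor Airn, Kcnq1 and Rasgrf1 in the polyA set, and Rasgrf1 was called in none. Airn had 1.05 and 0.795 CPM in Zfp281_WT in 2i and at 32 h and at most 0.248 CPM in every other library. Rasgrf1 had 1.69 and 2.31 CPM in those 2 libraries and at most 0.263 elsewhere. Zfp281_WT is also the line with counts for most olfactory receptor genes, and the part of that in these values was not tested. Tssc4 was within 8.32 to 12.2 CPM in all ribo-depleted libraries and 25.6 to 40.3 in all polyA ones. Casd1, a sialic acid acetyltransferase gene, and Mcts2, a retrogene of a translation factor, were called in 2 comparisons each, in opposite directions, and no call of either held in every alternative. Inpp5f, a phosphoinositide phosphatase gene, was called in 5 comparisons, none of which held in every alternative. It was higher at 32 h than in 2i in the ribo-depleted WT lines (50.6 and 49.6 against 43.7 and 38.1 CPM; 0.29 ± 0.09, adjusted p = 0.036) and in the polyA ones (0.49 ± 0.15, adjusted p = 0.022). In Zfp281 KO cells Inpp5f was lower at 16 h (-0.32 ± 0.10, adjusted p = 0.044) and 32 h (-0.31 ± 0.09, adjusted p = 0.023), and in the double KO in 2i it was higher (0.46 ± 0.15, adjusted p = 0.026). Zdbf2 was called once, lower in the double KO at 32 h (121 and 128 against 260 and 259 CPM; -1.06 ± 0.28, adjusted p = 0.0088; adjusted p = 0.058 without KO clone 1).

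Of 45 further genes reported as imprinted or lying in imprinted regions, 40 were tested in the ribo-depleted set and 38 in the polyA set. The list holds Snurf, which had nearly the same polyA values as the member Snrpn. In WT lines at 32 h they were 701 and 387 against 702 and 388 CPM, so it is not separate from that member. In WT cells 9 were higher and 7 lower at 32 h in the first and 11 and 7 in the second, where 25.9% and 35.7% of all genes were called. Dio3, which inactivates thyroid hormone and lies in the Dlk1/Meg3 cluster, had 6.26 and 7.33 CPM in 2i and 1.4 and 0.908 at 32 h in the ribo-depleted WT lines (-2.54, adjusted p = 0.00015), and 16.2 and 14.5 against 1.36 and 1.49 in the polyA lines (-3.42, adjusted p = 4.5e-06). That is the opposite sign to Meg3, Rian and Mirg, and the stages did not overlap. In the double KO Dio3 had 5.36 and 5.40 CPM at 32 h (1.91, adjusted p = 4e-04). Counts in the KO comparisons were 4 higher and 2 lower (Zfp281 KO, 2i), 4 and 6 of 35 (16 h), 6 and 0 (32 h), 5 and 4 (Ehmt1 KO, 2i), 7 and 2 (32 h), 0 and 0 (Zic2 KO, both stages), 8 and 7 (double KO, 2i) and 9 and 7 (32 h). In the same order the shares of all genes called were 13.8%, 28.6%, 28.5%, 26.9%, 26.6%, 0.274% and 0.0766% (Zic2 KO), 39.4% and 39.1%.

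Among 20 factors that keep, place or remove imprint marks, a list that also holds Zfp42, the locus of the reporter, 4 were higher and 5 lower at 32 h in ribo-depleted WT cells and 4 and 4 in polyA WT cells. Zfp57 had 519 and 540 CPM in 2i and 313 and 263 at 32 h in the first set (-0.88, adjusted p = 0.00014) and 479 and 503 against 257 and 256 in the second (-0.94, adjusted p = 7.8e-06). Dnmt3b, which places new methylation, had 197 and 162 CPM in 2i and 1220 and 1140 at 32 h in the first set (2.72 ± 0.11, adjusted p = 7.6e-07). In Zfp281 KO cells at 32 h Dnmt3b was at 504 and 454 CPM, below both WT libraries (-1.31 ± 0.11, adjusted p = 4.2e-05). In Zfp281 KO cells at 32 h Zfp57 was at 531 and 521 CPM (0.87, adjusted p = 0.00019), and in the double KO at 392 and 383 (0.59, adjusted p = 0.00028). The factor counts were 1 higher and 4 lower in Zfp281 KO cells in 2i, 2 and 6 at 16 h and 9 and 3 at 32 h. They were 2 and 2 in Ehmt1 KO cells in 2i and 3 and 0 at 32 h, 0 and 1 in Zic2 KO cells in 2i and 0 and 0 at 32 h, and 3 and 3 in the double KO at each stage. All 20 factors were tested in each comparison, and the shares of all genes called are those given for the further imprinted genes above. Whether these factors had a part in the members' values was not tested.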

How the data were processed

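The values are raw read counts per gene as deposited by the authors in 2 tables. The first holds the 2i and 32 h libraries of both kits, the second the 16 h libraries. Per the labels' protocols the ribosome-depleted libraries were made with ScriptSeq and the polyA-selected ones with TruSeq. The build GRCm38/mm10 and edgeR are named in the submitters' processing notes; the sources used here do not give the aligner, annotation or strand setting. Entrez IDs were matched to RefSeq symbols for 24061 of 24116 rows. The members and all lists were chosen with earlier results of these data known. Each table was fitted separately over all genes with edgeR 4.0.16 in R 4.3.3 (filterByExpr, TMM scaling, robust quasi-likelihood test), and p-values were adjusted by Benjamini-Hochberg over all genes of a table. Calls are at an adjusted p under 0.05, and 15 comparisons were made. Values are CPM on TMM-scaled library sizes, and errors are standard errors of the log2 fold change. The 16 h table was not tested against the other stages.

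Every call that is discussed was repeated with DESeq2 1.42.0, other size factors, no filter, only the groups compared, each library left out and, for stage, the line as a block. Samples of 1 line pair across stages, since both come from the same cell line. The deviations of its libraries correlated at 0.84 (ribo-depleted WT), 0.12 (Zfp281 KO), 0.06 (polyA WT), 0.55 (Ehmt1 KO), 0.29 (Zic2 KO) and 0.58 (double KO). The edgeR script was tested on simulated data. Any member could be named, with values for those called or needed to describe their cluster. From the other lists, up to 3 genes per direction with the smallest adjusted p could be named.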

Additional observations from a re-analysis of the deposited data

Results flagged for a closer look

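The change from 2i to 32 h differed between a KO genotype and WT, by a test of the difference itself (edgeR, adjusted over all genes), for 9 pairs of gene and genotype. In Zfp281 KO cells the log2 difference in response was -1.62 for Igf2, -0.99 for Meg3, -1.04 for Rian and -0.86 for Mirg. In Ehmt1 KO cells it was -0.89 for Igf2r and 1.90 for Plagl1. In the double KO it was -1.08 for Igf2r, 2.33 for Plagl1 and -4.07 for Usp29, and these 3 calls held in every alternative run. The Zfp281 KO calls were lost without any 1 of the 4 KO libraries.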

How the results depend on the processing

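Of 169 member calls, 75 kept direction and side of the threshold under every alternative run and 94 changed under at least 1. With the line as a block the members called were 31 (ribo-depleted WT, 32 h against 2i, main 20), 16 (Zfp281 KO difference in response), 7 (Ehmt1 KO), 1 (Zic2 KO) and 12 (double KO). With only the groups compared they were 10 (ribo-depleted WT), 1 (Ehmt1 KO difference in response, neither of the members reported), 4, 3 and 1 (Zic2 KO in 2i, at 32 h and difference in response) and 13 (double KO in 2i). Without the line Zfp281_WT they were 22, 33 and 12 (Zfp281 KO in 2i, at 32 h and difference in response). DESeq2 gave 4 (Ehmt1 KO difference in response), 4 (Zic2 KO in 2i) and 6 (double KO difference in response), and no filter gave 2 (Zic2 KO in 2i). In each of these runs the number of all genes called moved the same way as the member count. With the line as a block it was 7525, 2605, 1361, 50 and 2611, in the order above, against 4921, 787, 291, 0 and 829 in the main fits.

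Leaving out 1 library gave 2 to 21 members called for Zfp281 KO in 2i, 11 to 21 at 32 h and 0 to 12 for its difference in response. It gave 11 to 22 for polyA WT stage, 9 to 13, 6 to 12 and 0 to 3 for Ehmt1 KO in 2i, at 32 h and in response, and 0 to 4 for Zic2 KO in 2i. For the double KO it gave 11 to 14 at 32 h and 3 to 8 in response. The stage difference of H19 in ribo-depleted WT cells ranged from -2.46 to 4.69, the first without the line WT at 32 h, where it turned. No paired analysis was possible for KO against WT within a stage because the numbers do not pair WT lines with KO clones. A group reduced to 1 library is assumed to vary like the other groups. The number of all genes called also differed between the runs that left out a library. Total counts limit genes such as Peg13 and Dlk1, with few counts per library.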
